A study of Mus musculus with 8 samples.

Results

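The genes described here encode components of the transforming growth factor beta (TGF-beta) and bone morphogenetic protein (BMP) pathways: ligands, latent binding proteins, receptors, antagonists, SMAD proteins and their inhibitors. They come from a list of 38 genes, matched by symbol to the probe sets of the array, and where a gene had several probe sets, the brightest of those naming no other gene stood for it. In this way 36 of the 38 were measured, out of 12393 named genes on the array. Gdf15 and Smurf1 were not analysed here. The samples were ventral prostates of FVB mice aged 20 weeks. The transgenic group, 4 samples, carries an active allele of the PI3-kinase catalytic isoform p110 beta, and the labels describe its tissue as mouse prostatic intraepithelial neoplasia. The wild type group, 4 samples, is described as normal prostate. The labels name neither the promoter that drives the transgene nor whether the arrays hold different animals. The p-values therefore reflect only how far these samples spread, and some of that spread may be technical.

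TGF-beta itself is secreted in inactive complexes, held in the matrix by latent binding proteins. Once active, ligands of the family bring type II and type I receptor kinases together. The type I receptor then phosphorylates SMAD2 and SMAD3 for TGF-beta and activin, or SMAD1 and SMAD5 for BMPs, and these enter the nucleus with the common partner SMAD4. In the prostate, TGF-beta is known as a growth inhibitor of epithelial cells that also acts on the stroma, and BMP4 and BMP7 are known as regulators of ductal budding and branching during development.

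All values are log2 RMA values as deposited. A difference is transgenic minus wild type on that scale, and a gene was called where limma's p-value, adjusted by Benjamini-Hochberg over all 22626 probe sets, was under 0.05. Array medians lay between 5.404 and 5.51, and below them background can set a value, so a difference there is approximate and a change can be missed. Of the 36 genes, 14 had both group means below every array median. The secretory markers Pbsn, Msmb and Spink1 had a mean log2 level of 11.66 to 12.64 on transgenic arrays, against 13.12 to 13.57 on wild type arrays, so both groups carried the signal of prostate epithelium. In whole tissue, fewer cells of a type and less RNA per cell cannot be told apart.

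A ligand, a receptor and a signal transducer changed most. Tgfb2 fell, while Tgfbr2, the type II TGF-beta receptor, and Smad4 rose. Bmp7, Ltbp2 and Ltbp3 fell by less. In all, 2 of the 36 genes were called higher and 4 lower, where 5.99% of all genes were higher and 4.98% lower. Called genes made up 16.7% of the list and 11% of all genes. An unadjusted limma p under 0.05 was found for 12 of the 36 and for 2826 of all 12393 genes. Differences were below 0 for 25 of the 36 (69.4%), against 58.4% of all genes, and the median difference was -0.11, against -0.04 over all genes. The count of lower genes moved with single arrays. It was 1 without transgenic array 2 or 3 or without wild type array 2, 3 or 4, it was 2 without transgenic array 4, 5 without transgenic array 1 and 8 without wild type array 1. Tgfbr2 and Smad4 were the 2 higher genes without any one of the 8 arrays, and Tgfb2 was called lower each time.

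**Figure D1:**
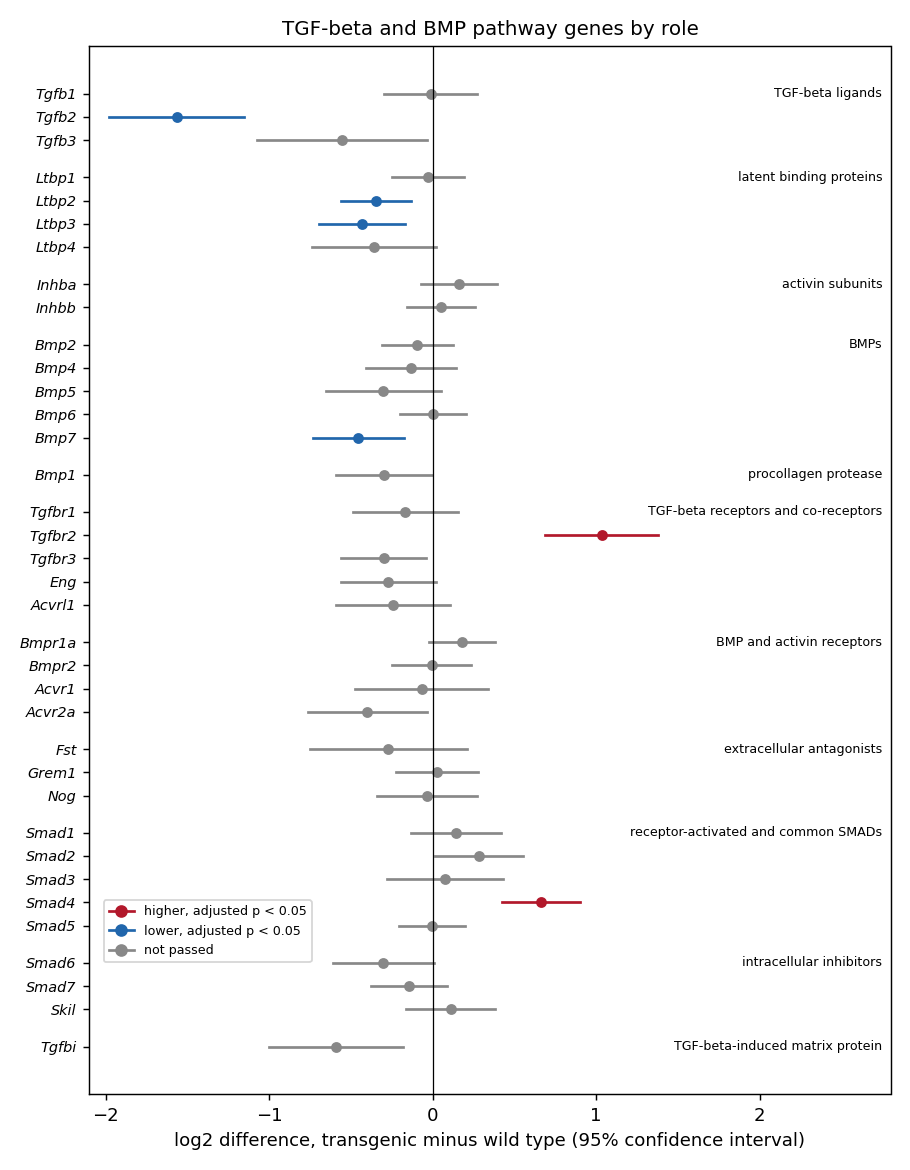
Differences in log2 value, transgenic minus wild type, for the 36 measured genes by role; points are limma estimates and lines their 95% confidence intervals. Tgfb2, Ltbp2, Ltbp3 and Bmp7 were called lower and Tgfbr2 and Smad4 higher, while the other 30 genes did not pass.

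The TGF-beta ligands differed among themselves. Tgfb2 encodes a ligand made by many epithelia. It was at 6.004, 5.61, 5.51 and 5.22 on transgenic arrays 1 to 4, against 7.57, 7.26, 6.84 and 6.94 on wild type arrays 1 to 4. Every transgenic array lay below every wild type array. The gene fell by 1.57 ± 0.19 on the log2 scale (SE, n = 4 each; limma adjusted p = 0.000272), a level 2.96-fold higher in wild type. Its other probe sets also fell, by 1.56 (limma adjusted p = 0.000125) and 0.83 (limma adjusted p = 0.0096). However, the former had its transgenic mean below every array median, and the latter had both means there. Leaving out single arrays gave differences from -1.71 to -1.43.

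Tgfb3, which encodes a ligand prominent in mesenchyme, was at 5.68, 5.61, 5.54 and 5.56 on the transgenic arrays and at 5.53, 6.78, 6.55 and 5.73 on the wild type arrays. The transgenic arrays sat close together, and wild type arrays 2 and 3 stood above them while wild type array 1 lay below. The difference of -0.55 (95% confidence interval -1.08 to -0.03) did not pass (limma adjusted p = 0.203). It passed without wild type array 1, at -0.76 (limma adjusted p = 0.0381). Tgfb1, the most studied of the ligands, averaged 4.96 ± 0.13 in transgenic and 4.97 ± 0.24 in wild type samples (SD, n = 4 each). Its groups overlapped and its difference of -0.01 had an interval of -0.30 to 0.27, but both means lay below every array median.

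**Figure D2:**
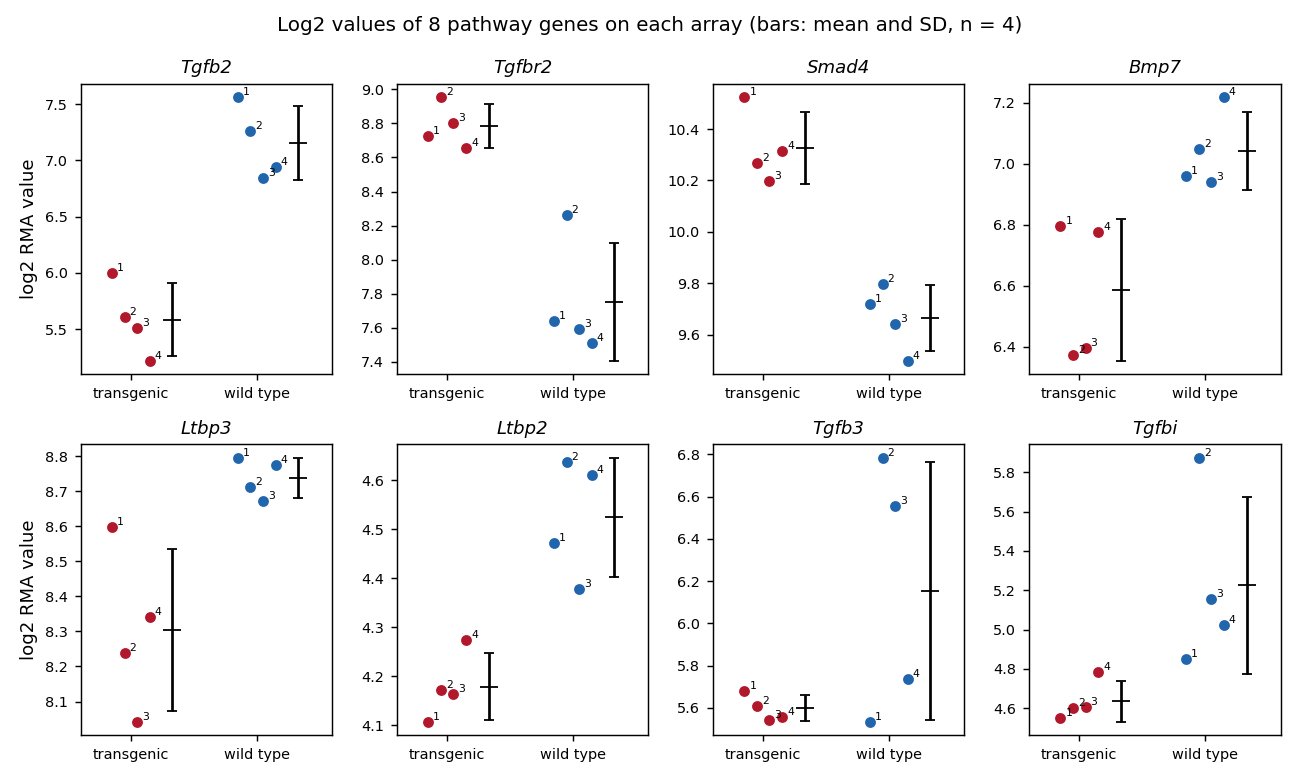
Log2 RMA values of 8 genes on each array, with transgenic samples left of wild type samples; numbers beside the points are the array numbers, and bars give the mean and SD of 4 arrays. For Tgfb2 the transgenic arrays lie between 5.22 and 6.004 and the wild type arrays between 6.84 and 7.57, while for Tgfb3 the groups overlap.

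Latent TGF-beta binding proteins tether the inactive ligand complex to the matrix. Ltbp3, which can bind the latent forms of TGF-beta, was at 8.60, 8.24, 8.04 and 8.34 on transgenic arrays 1 to 4, against 8.80, 8.71, 8.67 and 8.77 on wild type arrays. The wild type arrays were tightly grouped and lay above all transgenic arrays. It fell by 0.43 ± 0.12 (SE, n = 4 each; limma adjusted p = 0.0424), and its other probe set by 0.83 (limma adjusted p = 0.00229). The smaller fall missed the threshold without any one array except transgenic array 1 (adjusted p up to 0.126). Ltbp2, which encodes a protein of elastic fibres that does not bind latent TGF-beta, was at 4.11, 4.17, 4.16 and 4.27 in transgenic samples and at 4.47, 4.64, 4.38 and 4.61 in wild type samples. These groups did not overlap either, but both means were below every array median. Ltbp2 fell by 0.35 ± 0.10 (SE, n = 4 each; limma adjusted p = 0.0451), a call lost without any one array except wild type array 1 (adjusted p up to 0.127). Ltbp4 differed by -0.36 (limma adjusted p = 0.270), with overlapping groups, and passed at -0.53 without wild type array 1 (limma adjusted p = 0.0276). Ltbp1 differed by -0.03, with both means below every array median.

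Bmp7 was called among 5 BMP genes. This ligand acts through SMAD1 and SMAD5. It was at 6.80, 6.37, 6.40 and 6.78 on the transgenic arrays and at 6.96, 7.05, 6.94 and 7.22 on the wild type arrays. Transgenic arrays 1 and 4 came within a short distance of the wild type range without entering it. The fall was 0.46 ± 0.13 (SE, n = 4 each; limma adjusted p = 0.0438). Of the other Bmp7 probe sets, 1 fell by 0.76 (limma adjusted p = 0.0131), with its transgenic mean below every array median. Another, below every array median in both groups, differed by -0.18 and did not pass. The call for Bmp7 was lost without transgenic array 2 or 3 or wild type array 2, 3 or 4 (adjusted p up to 0.145). Bmp2, Bmp4, Bmp5 and Bmp6 lay below every array median in both groups, and their differences ran from -0.30 for Bmp5 to 0.00 for Bmp6. Bmp1 encodes not a ligand but a metalloproteinase that processes procollagen and the BMP antagonist chordin. It differed by -0.30 (limma adjusted p = 0.224), and passed at -0.42 without wild type array 1 (limma adjusted p = 0.0308).

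Neither activin subunit gene was called by limma, and of the 2 genes 0 had an unadjusted p under 0.05. Inhba, encoding the beta A subunit, averaged 6.41 ± 0.09 in transgenic and 6.25 ± 0.16 in wild type samples (SD, n = 4 each), a difference of 0.16 with a 95% confidence interval of -0.07 to 0.39. Inhbb, encoding the beta B subunit, differed by 0.05, with an interval of -0.16 to 0.26. The groups overlapped for both genes.

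Among the receptors, Tgfbr2 rose, opposite to the ligand gene Tgfb2. The receptor gene encodes the kinase that binds TGF-beta first and then activates the type I receptor. Tgfbr2 was at 8.73, 8.96, 8.80 and 8.65 on transgenic arrays 1 to 4, against 7.64, 8.26, 7.60 and 7.51 on wild type arrays 1 to 4. All transgenic arrays lay above all wild type arrays, of which array 2 was the highest. The rise was 1.03 ± 0.16 on the log2 scale (SE, n = 4 each; limma adjusted p = 0.00149), or 2.05-fold. The other Tgfbr2 probe sets were below every array median in both groups. The nearer to the medians differed by 0.38 with groups that did not overlap (limma adjusted p = 0.0691), and the dimmer by -0.06. Averaging the 3 probe sets gave a rise of 0.45 (limma adjusted p = 0.00667). Leaving out single arrays gave rises from 0.95 to 1.20.

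The promoter sequences of Tgfb2 and Tgfbr2 are shown because these genes changed most and in opposite directions. Each is the 250 bases before a transcript start in the RefSeq promoter table of GRCm38.p6, read 5′ to 3′ on the strand of the gene. Capitals mark 3 matches in this order: first CAGACA, to which SMAD proteins can bind. Next comes the E-box CACGTG. Last is the TATA box, with the letters TATAAA. The Tgfb2 window is chr1:186705990-186706239, minus strand, and its start lies inside the annotated span of the gene (186622787 to 186709697).
Tgfb2: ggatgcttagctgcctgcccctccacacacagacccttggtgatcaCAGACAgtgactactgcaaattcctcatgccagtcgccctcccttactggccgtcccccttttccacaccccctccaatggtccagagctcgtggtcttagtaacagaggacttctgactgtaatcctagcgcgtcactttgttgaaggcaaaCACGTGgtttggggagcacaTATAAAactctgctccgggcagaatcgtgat
The Tgfbr2 window is chr9:116175364-116175613, minus strand, and holds none of the letters searched.
Tgfbr2: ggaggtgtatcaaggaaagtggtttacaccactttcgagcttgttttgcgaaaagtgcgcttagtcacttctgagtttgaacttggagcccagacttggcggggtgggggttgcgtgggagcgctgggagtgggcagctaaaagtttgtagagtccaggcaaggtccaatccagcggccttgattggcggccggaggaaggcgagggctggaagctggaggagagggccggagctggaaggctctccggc

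Counted back from the start, with -1 the base just before it, the first base of the match in Tgfb2 was at -204 for CAGACA, -51 for CACGTG and -31 for TATAAA. The search covered both strands, and no matches overlapped in either window. Over the 250-base windows of all 32851 promoters in the table, CAGACA was present in 17.1%, CACGTG in 6.02% and TATAAA in 12.4%. A RefSeq promoter was given for 24 of the 36 genes, and CAGACA was present in 4 of them (Bmp5, Ltbp1, Tgfb2 and Tgfbr1). The letters GGCGCC, to which SMAD1 and SMAD5 can bind, were present in 7 of the 24 (Bmpr1a, Bmpr2, Grem1, Ltbp4, Smad5, Tgfbi and Tgfbr1) and in 9.59% of all windows. GTCTAGAC, a SMAD palindrome, was in none of the 24 and in 0.167% of all windows. CACGTG was in 3 of the 24 (Bmp4, Bmp6 and Tgfb2) and TATAAA in 2 (Inhba and Tgfb2). CACGTG and TATAAA were added to the search after the sequences had been seen. Members were counted by gene and the whole table by window, so these shares differ in unit. A match describes letters only.

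The type I receptor gene Tgfbr1 was at 7.87 to 8.001 on the transgenic arrays and at 7.73 to 8.41 on the wild type arrays. The transgenic range lay inside the wild type range, and the difference was -0.17 (95% confidence interval -0.49 to 0.15). The co-receptor gene Tgfbr3, encoding betaglycan, which presents TGF-beta2 to the type II receptor, averaged 5.85 ± 0.19 in transgenic and 6.16 ± 0.14 in wild type samples (SD, n = 4 each). Its difference of -0.30 did not pass (limma adjusted p = 0.156), but did without transgenic array 1, at -0.39 (limma adjusted p = 0.0474). Eng and Acvrl1, encoding endoglin and the type I receptor ALK1 of blood vessels, differed by -0.27 and -0.25 without passing. Beside them, 0 of 12 endothelial markers passed in limma, 1 had an unadjusted p under 0.05, and their mean log2 level was 4.87 to 4.99 on transgenic arrays, against 4.72 to 5.17 on wild type arrays. Acvrl1 had both means below every array median.

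Receptors for BMPs and activins gave no calls in limma, and 1 of the 4, Acvr2a, had an unadjusted p under 0.05. Bmpr1a, encoding a type I BMP receptor, was at 8.27, 8.35, 8.25 and 8.26 in transgenic samples, against 8.16, 8.18, 8.10 and 7.96 in wild type samples. The groups did not overlap, but the difference was 0.18 (95% confidence interval -0.02 to 0.38; limma adjusted p = 0.302). Acvr2a, encoding a type II activin receptor, was at 7.70, 7.39, 6.88 and 7.12 in transgenic samples and at 7.56, 7.47, 7.80 and 7.85 in wild type samples. Its groups overlapped through transgenic array 1, and the difference of -0.40 (limma adjusted p = 0.189) became -0.54 without that array (limma adjusted p = 0.0415). The other Acvr2a probe set, also above the array medians, differed by 0.046 (limma adjusted p = 0.891), and the mean of both by -0.18 (limma adjusted p = 0.377). Bmpr2 and Acvr1 differed by -0.01 and -0.07, but both Bmpr2 means lay below every array median.

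Smad4 rose among the 5 receptor-activated and common SMADs. Its protein is the partner shared by TGF-beta and BMP signals. It was at 10.53, 10.27, 10.20 and 10.31 on the transgenic arrays, against 9.72, 9.80, 9.64 and 9.50 on the wild type arrays. Both groups were compact and well apart. The rise was 0.66 ± 0.11 (SE, n = 4 each; limma adjusted p = 0.00227), or 1.58-fold. A further Smad4 probe set rose by 0.997 (limma adjusted p = 0.000273), and the remaining one differed by 0.51 with overlapping groups (limma adjusted p = 0.0614). Smad2, a transducer of TGF-beta and activin, averaged 6.54 ± 0.20 in transgenic and 6.26 ± 0.14 in wild type samples (SD, n = 4 each), a difference of 0.28 that did not pass (limma adjusted p = 0.204). Smad1, Smad3 and Smad5 differed by 0.14, 0.07 and -0.00, with limma adjusted p from 0.600 to 0.993. Smad3 had both means below every array median, so a change in it can be missed.

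**Figure D3:**
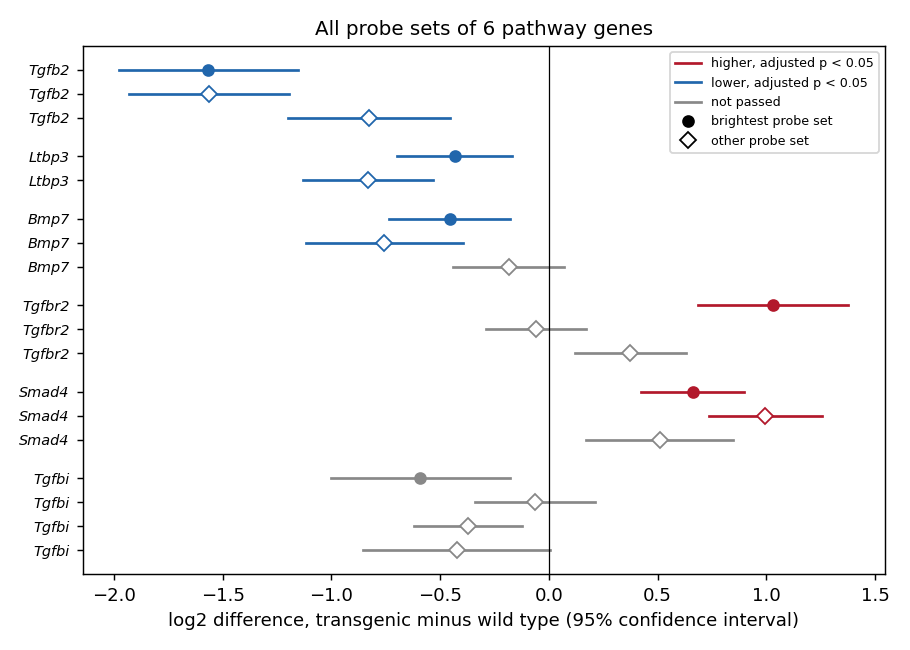
Differences in log2 value, transgenic minus wild type, for every probe set of 6 genes; lines are 95% confidence intervals, filled circles the brightest probe set and open diamonds the others. All 3 Tgfb2 probe sets were lower, 2 of 3 Smad4 and Bmp7 probe sets passed, and Tgfbr2 passed on the brightest probe set.

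Antagonists and intracellular inhibitors gave no calls. Of the 3 secreted antagonists, 0 passed in limma and 0 had an unadjusted p under 0.05. Fst encodes follistatin, which binds activins, and was at 5.85, 6.75, 6.77 and 6.48 in transgenic samples and at 6.53, 7.27, 6.64 and 6.51 in wild type samples. The groups overlapped, with transgenic array 1 lowest and wild type array 2 highest (difference -0.27, 95% confidence interval -0.75 to 0.21). The BMP antagonist genes Grem1 and Nog were below every array median in both groups and differed by 0.03 and -0.04. Of the 3 measured inhibitors inside the cell, again 0 passed in limma and 0 had an unadjusted p under 0.05. Smad7 encodes the inhibitory SMAD that blocks the TGF-beta receptor and is itself induced by the pathway. It averaged 6.71 ± 0.11 in transgenic and 6.86 ± 0.14 in wild type samples (SD, n = 4 each), with a difference of -0.15 (interval -0.38 to 0.09). Skil, encoding the SMAD co-repressor SnoN, differed by 0.11, and Smad6, the inhibitory SMAD of BMP signals, by -0.30 below every array median. Smad6 passed without wild type array 1, at -0.42 (limma adjusted p = 0.0424).

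Tgfbi, named for its induction by TGF-beta, encodes a matrix protein. It was at 4.55, 4.60, 4.61 and 4.79 in transgenic samples, against 4.85, 5.88, 5.15 and 5.02 in wild type samples. The groups did not overlap, and wild type array 2 was the highest, but both means lay below every array median. The difference of -0.59 (95% confidence interval -1.003 to -0.18) did not pass (limma adjusted p = 0.0746), and none of the 4 Tgfbi probe sets did by limma, with differences from -0.59 to -0.065. It passed without wild type array 1, at -0.72 (limma adjusted p = 0.0292). In all, groups did not overlap for 8 of the 36 genes, 3 higher and 5 lower, while 8.09% of all genes were higher and 8.2% lower without overlap, 16.3% together.

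Stromal markers also differed between the groups. Of 11 smooth muscle markers 4 fell and 0 rose by limma, and of 12 fibroblast markers 2 fell, 0 rose and 10 did not pass. Called genes were 36.4% of the smooth muscle list and 16.7% of the fibroblast list, against 11% of all genes. The unadjusted p was under 0.05 for 6 smooth muscle and 5 fibroblast markers, all lower, and for 2826 of all 12393 genes. Fibroblast list levels overlapped between the groups. The mean log2 level of the smooth muscle list was 8.08 to 8.45 on transgenic arrays and 8.60 to 9.24 on wild type arrays, and that of the fibroblast list 6.10 to 6.30 on transgenic arrays and 6.24 to 7.22 on wild type arrays. Wild type array 2 was the highest for both lists. A stromal score, the mean of the gene-centred values of both lists, was -0.26 ± 0.11 in transgenic and 0.26 ± 0.35 in wild type samples (SD, n = 4 each).

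With that score as a covariate, Tgfb2 was at -1.78 ± 0.28 (SE; limma adjusted p = 0.00659) and Tgfbr2 at 1.43 ± 0.19 (SE; limma adjusted p = 0.00239), each at least as large as without it. Smad4 was at 0.69 ± 0.17, which missed the threshold (SE; limma adjusted p = 0.0565). Bmp7, Ltbp3 and Ltbp2 were at -0.50, -0.57 and -0.26 and missed it too, with limma adjusted p of 0.273, 0.143 and 0.533. Tgfb3 was at 0.16 and Tgfbi at 0.02 with the score in the fit, and Ltbp4 at -0.09. The score also separates the groups, so this fit cannot tell group and stroma apart. Wild type array 2 had the highest score, 0.72, and was also the highest array for Tgfb3 and Tgfbi. The standard error was larger with the score for all of these genes except Tgfb3 and Tgfbi. Among the genes named below, Htra1, Tsc22d1, Fstl3, Snai2 and Gata2 also missed the threshold with it (limma adjusted p of 0.0936 to 0.382). Their differences with the score, -0.62, 0.67, -0.58, -0.51 and -0.63, were close in size to those without it, and their standard errors were larger. Bhlhe40 and Id4 kept their calls.

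**Figure D4:**
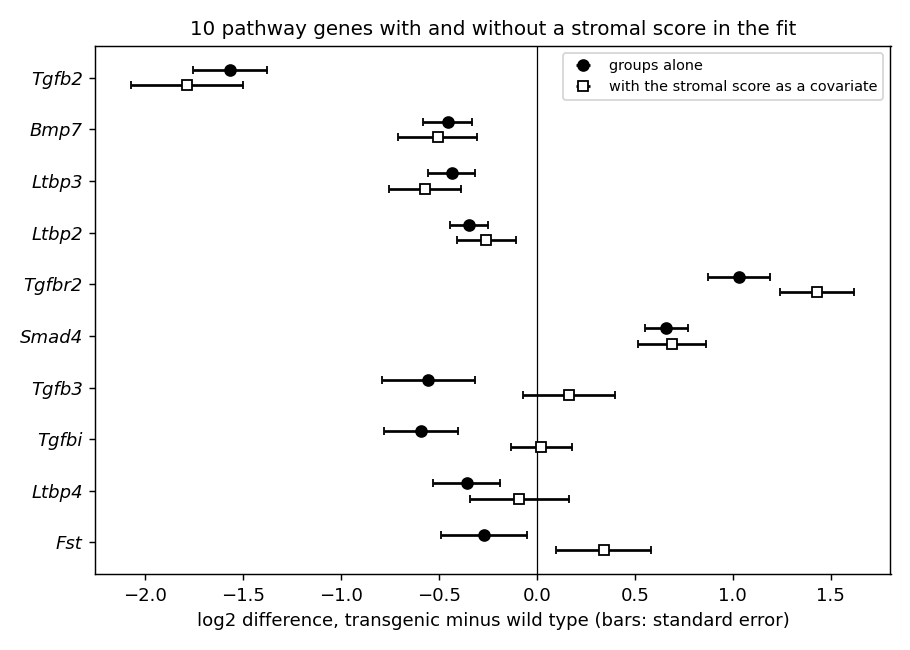
Log2 differences, transgenic minus wild type, of 10 genes in the fit of the groups alone (filled circles) and with the stromal score as a covariate (open squares); bars are standard errors. Without and with the score, differences were -1.57 and -1.78 for Tgfb2 and 1.03 and 1.43 for Tgfbr2. They were -0.55 and 0.16 for Tgfb3 and -0.59 and 0.02 for Tgfbi. The score separates the groups, so the fit cannot tell group and stroma apart.

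Epithelial markers differed between the same groups. Called genes were 45.5% of the basal list and 50% of the luminal list, against 11% of all genes. Of 11 basal markers 5 fell and 0 rose by limma, all 5 of those with an unadjusted p under 0.05 being lower, and the list's mean log2 level was 5.81 to 6.01 on transgenic arrays, against 6.25 to 6.40 on wild type arrays. Of 8 luminal markers 4 rose and 0 fell by limma, with 5 at an unadjusted p under 0.05, and the list's mean level was 10.46 to 10.55 on transgenic arrays, against 9.91 to 10.01 on wild type arrays. The secretory markers, listed apart from these 8, went the other way. Pbsn differed by -1.28 (limma adjusted p = 0.00361) and Msmb by -1.72 (limma adjusted p = 0.00592), both called lower. Spink1 differed by -0.33 and did not pass (limma adjusted p = 0.0737). As a sign of RNA quality, the log2 difference of 3 prime over 5 prime control probe sets was 1.12 ± 0.19 in transgenic and 1.47 ± 0.09 in wild type samples (SD, n = 4 each). The part of these markers and of RNA quality in the changes of Tgfb2, Tgfbr2, Smad4 and Bmp7 was not tested.

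Other genes of the pathways gave few calls. Of 51 further components, 38 were measured, and by limma 2 fell, 0 rose and 36 did not pass. Called genes were 5.26% of this list and 11% of all genes. The unadjusted p was under 0.05 for 10 of the 38, against 2826 of all 12393 genes. Htra1 encodes a secreted protease reported to inhibit TGF-beta family signalling. It was at 5.74, 5.90, 5.92 and 5.83 in transgenic samples, against 6.52, 6.47, 6.88 and 6.26 in wild type samples. It fell by 0.68 ± 0.13 (SE, n = 4 each; limma adjusted p = 0.00602), without overlap, and both of its probe sets passed. Fstl3, encoding a follistatin-like antagonist of activin, fell by 0.50 ± 0.13 (SE, n = 4 each; limma adjusted p = 0.0324), a call that held only without transgenic array 1 or wild type array 1 when arrays were left out singly (adjusted p up to 0.104 for the other 6). The median of the 38 was -0.05, against -0.04 over all genes.

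Genes known to be induced by TGF-beta gave calls in both directions. Of 17 measured, 2 rose and 1 fell by limma, while 14 did not pass and 5 had an unadjusted p under 0.05. Called genes were 17.6% of this list and 11% of all genes. Differences were below 0 for 12 of the 17 (70.6%), against 58.4% of all genes, with a median of -0.27, against -0.04. This list shares Acta2, Tagln and Col1a1 with the stromal marker lists. Bhlhe40, encoding a transcriptional repressor of the basic helix-loop-helix family that hypoxia also induces, was at 7.79, 7.44, 7.59 and 7.56 on the transgenic arrays, against 5.93, 6.33, 5.94 and 5.86 on the wild type arrays. It rose 2.98-fold (1.58 ± 0.13 on the log2 scale, SE, n = 4 each; limma adjusted p = 1.46e-05), with the groups far apart. Tsc22d1, first described as a TGF-beta-stimulated transcript, rose by 0.69 ± 0.12 (SE, n = 4 each; limma adjusted p = 0.00347), and 3 of its 6 probe sets passed, all higher, with differences from 0.17 to 0.69. Snai2, encoding the repressor Slug, fell by 0.40 ± 0.09 (SE, n = 4 each; limma adjusted p = 0.0180), with both means below every array median. The Snai2 call was lost without transgenic array 2 or 3 or wild type array 3 (adjusted p up to 0.0654).

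Of 10 measured genes known to be induced by BMPs, 2 fell, 0 rose and 8 did not pass by limma. The unadjusted p was under 0.05 for 2, and the median was -0.18. Called genes were 20% of this list and 11% of all genes. Id4, of the family of inhibitors of basic helix-loop-helix factors, was at 6.25, 6.50, 5.94 and 5.82 in transgenic samples, against 8.92, 8.75, 8.30 and 7.42 in wild type samples. It fell by 2.22 ± 0.28 (SE, n = 4 each; limma adjusted p = 0.000411) and all 3 of its probe sets passed. The family members Id1, Id2 and Id3, the classical BMP targets, differed by -0.25, 0.21 and -0.42 and did not pass, but Id1 and Id3 had both means below every array median. Gata2, encoding a zinc finger factor that works with the androgen receptor in prostate, fell by 0.71 ± 0.19 (SE, n = 4 each; limma adjusted p = 0.0344) with overlapping groups, and 1 of its 2 probe sets passed. The Gata2 call was lost without transgenic array 2, 3 or 4 or wild type array 2 or 4 (adjusted p up to 0.0948).

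**Figure D5:**
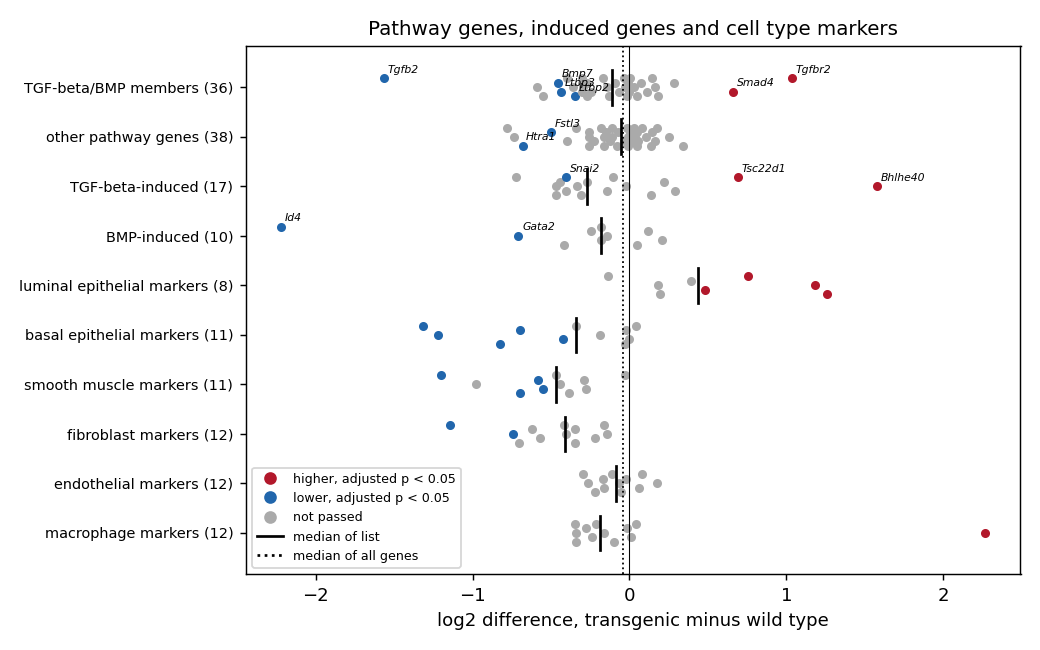
Log2 differences, transgenic minus wild type, of the 36 genes, of further pathway genes, of genes induced by TGF-beta or BMP, and of cell type markers, 1 point a gene, with the number measured in brackets; black bars are list medians and the dotted line the median of all genes (-0.04). Bhlhe40 and Tgfbr2 stand out above 0 and Id4 and Tgfb2 below it among the pathway and induced genes.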

How the data were processed

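Ventral prostate RNA was hybridised to Affymetrix mouse arrays, 1 per sample. Per the submitters' processing notes the authors used RMA, whose version is not given in the sources used here, and what they deposited are log2 values. RMA normalizes between arrays, so a change common to all transcripts would be removed. Gene names came from the array platform's annotation, with symbols updated by gene identifier through RefSeq (GRCm38.p6), and 64 control probe sets were left out. The linear model used limma 3.58.1 under R 4.3.3, with lmFit and eBayes, over the 22626 that remained and Benjamini-Hochberg adjustment. No 2 arrays were copies (highest correlation 0.996). The number of arrays limits the precision. Nothing in the labels says that array numbers pair samples, so numbers were not used as pairs. Deviations of same-numbered arrays correlated at -0.30, 0.22, -0.18 and 0.34. Arrays of unlike number were not compared, so these values cannot decide whether numbers pair samples.

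The genes, marker lists and tests were chosen with earlier results of these data known. All measured members are named. From each of 3 further lists, up to 6 called genes are named by size, or the gene with the smallest p where none was called. Id1, Id2 and Id3 were added to these. Alternatives were quantile and cyclic loess normalization, leaving out the dimmest 40% of probe sets, eBayes with a trend and robust prior, weights for arrays, the mean of a gene's probe sets, leaving out _s_at and _x_at probe sets, the replicate number as a block, the stromal score, a threshold of 0.01 and leaving out each array.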

Additional observations from a re-analysis of the deposited data

Results flagged for a closer look

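In 4 cases 1 array lay far from the other 3 of its group. Fst was at 7.27 on wild type array 2 and between 6.51 and 6.64 on the others. Skil was at 9.26 on wild type array 2, against 8.76 to 8.85 on the others, and Bhlhe40 at 6.33 on that array, against 5.86 to 5.94. Snai2 was at 3.57 on transgenic array 4 and between 3.40 and 3.42 on the other transgenic arrays. The 43 genes examined give 86 groups of arrays, and chance alone flags about 1 group in 20. Wild type array 2 also had the highest stromal score, 0.72, against -0.09 to 0.29 on the other wild type arrays.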

How the results depend on the processing

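Tgfb2 and Tgfbr2 kept direction and call under all alternatives run, from -1.78 to -1.32 and from 0.45 to 1.43, and Smad4 under all but the stromal score. The number of these genes called lower was 2 with quantile or cyclic loess normalization or with the trend and robust prior, 1 with the replicate number as a block, the stromal score or a threshold of 0.01, 8 with array weights, and 1 to 8 when single arrays were left out. The number called higher was 1 with the stromal score. Over all genes, 742 were higher and 617 lower. These counts were 302 and 232 with the stromal score and 408 and 259 at the threshold of 0.01, 1068 were lower with array weights, and leaving out single arrays gave 494 to 821 higher and 359 to 693 lower, both fewest without transgenic array 2. With the replicate number as a block, 599 were higher and 486 lower, and among the 36 genes the calls of Ltbp2, Ltbp3 and Bmp7 were lost. Fstl3 lost its call too (limma adjusted p = 0.0790).

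Tgfb3, Tgfbi, Fst and genes nearer 0 changed sign, none with a call. With quantile normalization Tgfb1 was at 0.022, Ltbp1 at 0.0093, Bmpr2 at 0.034, Nog at 0.0051 and Smad5 at 0.0011. With cyclic loess Tgfb1 was at 0.033, Ltbp1 at 0.013, Bmpr2 at 0.036, Nog at 0.0044 and Smad5 at 0.025. With array weights Bmp6 was at -0.034, Bmpr2 at 0.012, Acvr1 at 0.014 and Smad3 at -0.015. With the mean of probe sets Inhbb was at -0.010 and Smad5 at 0.050. With the stromal score Tgfb1 was at 0.055, Tgfb3 at 0.16, Ltbp1 at 0.047, Bmp4 at 0.12, Bmp6 at -0.0018, Bmpr2 at 0.00091, Fst at 0.34, Grem1 at -0.098, Nog at 0.10 and Tgfbi at 0.024. Leaving out single arrays gave -0.17 to 0.060 for Acvr1, -0.038 to 0.032 for Bmp6, -0.065 to 0.058 for Bmpr2, -0.045 to 0.091 for Grem1, -0.0042 to 0.082 for Inhbb, -0.078 to 0.016 for Ltbp1, -0.16 to 0.038 for Nog, -0.055 to 0.19 for Smad3, -0.038 to 0.041 for Smad5 and -0.11 to 0.079 for Tgfb1. The cause was not tested.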
